A study of Mus musculus with 46 samples.

Results

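Promoter contacts of mouse liver were set against the topologically associating domains (TADs, called domains here) of the same liver, to measure how often a promoter and its distal contact lay in 1 domain and how often a domain border lay between them. The contacts came from promoter capture Hi-C (PCHi-C) and the domains from in situ Hi-C, 2 animals per diet in each assay, 8 of the 46 samples of the series. Liver was taken from male C57BL/6 mice fed a lipid-rich diet (LD, 60% of energy as lipid, labelled high fat) or a carbohydrate-rich diet (CD, 70% of energy as carbohydrate, labelled low fat) for 20 weeks, from an age of 5 weeks and 1 week of acclimation. Animals of both diets were of 1 strain and sex, and the labels name no engineered allele. Glucose and insulin tolerance tests by injection were part of the study on both diets, and the sources used here do not say which of the profiled animals had them. Each diet has 1 interaction list and 1 domain list that merge its 2 animals, so no spread between animals can be given. The intervals below are 95% binomial intervals (Wilson for shares, and exact for shares of discordant pairs). They cover counting error only, and the interactions of 1 bait are not independent of each other.

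Domains are stretches of chromosome whose DNA contacts itself more often than the DNA beyond their borders. In mammals many borders are held by cohesin, a ring complex that extrudes loops of chromatin, and by CTCF, a zinc finger protein that stops cohesin in one orientation. Enhancers often act on promoters far along the chromosome, and a border between an enhancer and a promoter is known to hinder that contact at well-studied loci. The liver consists mainly of hepatocytes, which secrete plasma proteins and handle fatty acids, sterols and bile acids.

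Of 151203 interactions in the LD list, 150174 (99.3%) could be placed, as could 148721 of 149798 (99.3%) in the CD list. An interaction was placed when the midpoints of the baited fragment, of the distal fragment and of the point mirrored across the bait at equal distance all lay within the domain list of the diet, with chromosome Y left out. The interactions started from 14219 baited fragments on LD and 13804 on CD, with a median distance of 234 kb on LD and 231 kb on CD. Fragments came from HindIII digestion and had a median length of 4.11 kb on LD and 4.05 kb on CD. The domain lists held 5912 domains on LD and 5776 on CD, both with a median size of 280 kb and contiguous along each chromosome. Captured libraries were prepared from Hi-C libraries, so both lists of a diet rest on the same ligation products and are not independent readouts. The transcript table of the series carried the hepatocyte markers Alb, Apoa1, Ttr, Serpina1a and Cyp2e1 at 915 TPM (transcripts scaled to a common library total) or more in each of 5 mice per diet. The 5 markers of macrophages lay between 2.14 and 201 TPM, the 3 of endothelial cells between 6.14 and 44.8, the 3 of stellate cells between 2.49 and 51.0, the 3 of lymphocytes between 0.0334 and 1.34, and the 2 of adipocytes between 0 and 0.127. These ranges pool the diets. Cd68 was at 21.3 to 34.9 TPM on LD and 9.75 to 15.0 on CD, and Serpina1a at 915 to 1200 and 1400 to 1477. Pecam1 and Des also ranged higher on LD than on CD without overlap. Which of these cell types a contact came from cannot be told in whole liver.

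Observed distal ends lay in the domain of their bait far more often than mirrored points did. On LD, 96324 of 150174 interactions (64.1%, 63.9 to 64.4) had both ends in 1 domain, against 34071 mirrored points (22.7%, 22.5 to 22.9). On CD, 96041 of 148721 (64.6%, 64.3 to 64.8) had both ends in 1 domain, against 35369 mirrored points (23.8%, 23.6 to 24.0). The difference was 41.5 percentage points on LD (41.2 to 41.7) and 40.8 on CD (40.6 to 41.0). Distance and bait are the same for an observed end and its mirrored point, so the pairs that carry the comparison are the discordant ones, where exactly 1 of both sides of the bait lies in its domain. On LD the observed end was the one inside in 70369 discordant pairs and the mirrored point in 8116, so the observed end was inside in 89.7% (89.4 to 89.9). On CD these were 68655 and 7983, or 89.6% (89.4 to 89.8). Among baited fragments with at least 5 placed interactions, 5714 of 7973 on LD (71.7%) had a larger one-domain share for observed ends than for mirrored points, and 644 (8.08%) had a smaller one. On CD these were 5498 (70.8%) and 635 (8.17%) of 7769. Every interaction lay in 1 domain for 30.4% of these baits on LD and 30.5% on CD, and none did for 10.1% and 10.2%.

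The share in 1 domain fell with distance, and the gap between observed ends and mirrored points was widest at intermediate distance. Under 25 kb both were near the top on LD, at 97.3% observed and 95.9% mirrored, a difference of 1.34 points. The LD shares were 95.2% and 56.5% at 50 to 100 kb. At 100 to 200 kb they were 85.4% and 25.5%, the largest difference of the 8 distance ranges at 59.8 points. From 300 to 500 kb the observed share was 43.5% and the mirrored share 6.99%, and beyond 750 kb they were 17.0% and 4.65%. The CD list gave nearly the same values, with 85.8% and 26.7% at 100 to 200 kb and 18.1% and 5.49% beyond 750 kb. With mirrored points only on listed fragments, the difference beyond 750 kb moved from 12.4 to 19.4 points on LD and from 12.6 to 23.4 on CD. Without points within 20 kb of a border, the LD difference under 25 kb was 0, and at scores of at least 10 it was 0.295 points. In steps of 50 kb, the observed share passed below 50% between 300 to 350 kb (52.4% on LD and 52.6% on CD) and 350 to 400 kb (44.6% on LD and 44.5% on CD).

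**Figure D1:**
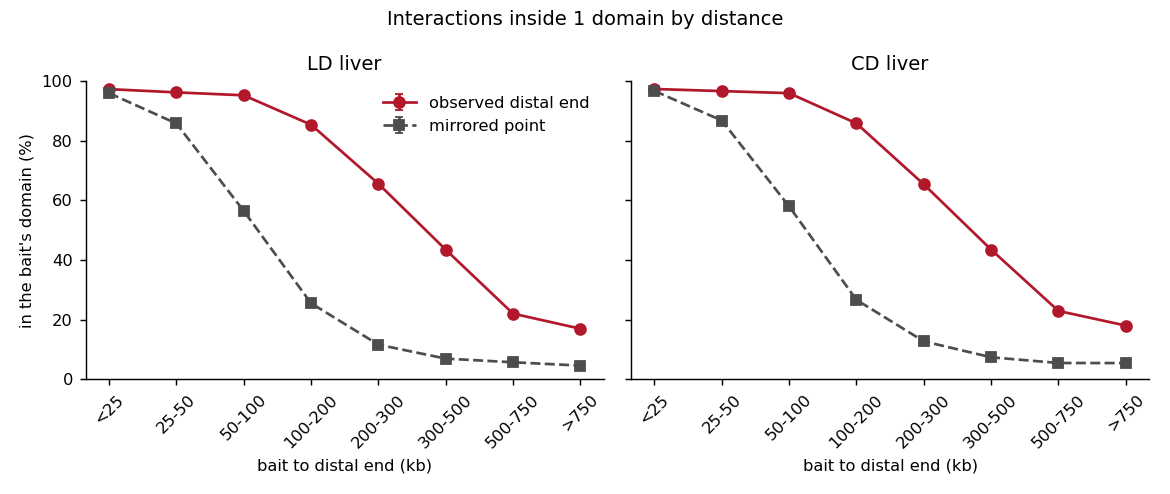
Share of interactions (%) whose observed distal end (circles) or mirrored point (squares) lay in the domain of the bait, by distance from bait to distal end (kb), for LD and CD liver. Bars are 95% Wilson intervals, mostly smaller than the symbols. Both curves start near the top under 25 kb, and the gap is widest at 100 to 200 kb, at 59.8 points on LD and 59.1 on CD.

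Discordant pairs varied less with distance than the shares themselves. Beyond 50 kb the observed end was the inner one in 85.8% to 91.1% of discordant pairs on LD and in 84.4% to 92.2% on CD. Under 25 kb this was 59.9% on LD (53.8 to 65.7) and 55.6% on CD (49.0 to 62.1), over few discordant pairs. Among interactions that left their domain, most crossed 1 border, which was 39678 on LD (73.7% of those that crossed any) and 38726 on CD (73.5%). Among mirrored points that left the domain these were 64.7% and 66.4%. Another 11299 crossed 2 borders on LD and 2396 crossed 3. The most borders crossed by 1 interaction was 7 on each diet.

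Both shares rose with the size of the domain that held the bait. In LD domains under 150 kb, 26.4% of interactions stayed inside, against 6.11% of mirrored points. In domains of 400 to 700 kb these were 75.8% and 24.7%. The share of discordant pairs with the observed end inside was 91.4%, 91.0%, 90.8% and 90.5% over the 4 size ranges up to 700 kb on LD, but 78.8% (77.9 to 79.8) in larger domains. On CD it ran from 90.2% to 92.2% up to 700 kb and was 77.5% (76.6 to 78.4) in larger domains. From the smallest to the largest LD domains, promoter-promoter interactions made up 16.7%, 15.0%, 11.8%, 8.65% and 20.1% of interactions.

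Stronger interactions stayed inside domains more often. The CHiCAGO score weighs the reads of an interaction against a background that falls with distance, and the lists begin at 5. On LD, 59.5% of interactions scoring 5 to 6 lay in 1 domain, 62.9% at 6 to 8, 67.6% at 8 to 12, 73.0% at 12 to 20 and 78.3% (77.0 to 79.5) at 20 or more. Mirrored points went the other way, from 24.5% at 5 to 6 to 18.9% at 12 to 20 and 19.7% at 20 or more. The difference rose from 35.0 to 58.6 points on LD and from 34.1 to 59.4 on CD. Median distance hardly moved with the score on LD, from 237 kb at 5 to 6 to 233 kb at 20 or more.

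Within ranges of distance the rise with the score depended on the distance. At 50 to 100 kb the LD share was 94.9% at scores of 5 to 6, 95.7% at 8 to 12 and 91.5% at 20 or more. On CD it rose from 95.4% (94.9 to 96.0) at 5 to 6 to 97.4% (96.5 to 98.1) at 12 to 20 and was 93.3% at 20 or more. At 200 to 300 kb it rose from 58.1% to 87.0% on LD and from 59.2% to 85.8% on CD. At 300 to 500 kb it rose from 35.7% to 72.8% on LD and from 36.7% to 69.3% on CD. In this range the observed end was the inner one in 87.2% of discordant pairs at scores of 5 to 6 and in 98.2% at 20 or more on LD, and in 86.4% and 97.7% on CD.

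**Figure D2:**
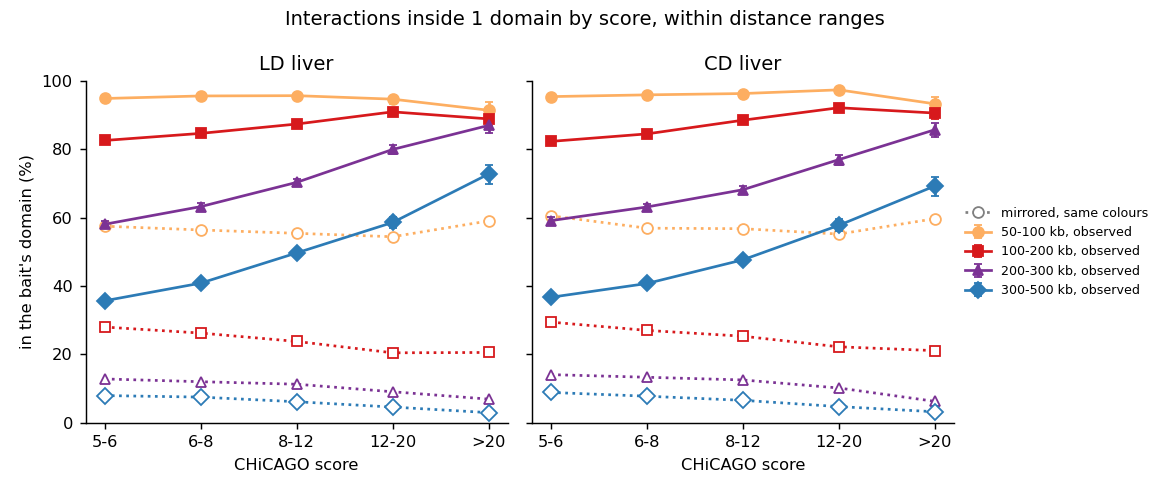
Share of interactions (%) in the domain of the bait by CHiCAGO score, in 4 ranges of distance (colours), for observed ends (filled symbols, with 95% Wilson intervals) and mirrored points (open symbols, dotted), in LD and CD liver. From 200 to 500 kb the filled curves rise with the score while the open ones fall, and at 50 to 100 kb the filled curve stays above 90%.

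Promoter-promoter interactions, in which both ends are baited fragments, crossed borders more often than interactions of a promoter with an unbaited fragment (promoter-other). On LD 10096 of 19033 promoter-promoter interactions (53.0%, 52.3 to 53.8) lay in 1 domain, against 86228 of 131141 promoter-other interactions (65.8%, 65.5 to 66.0). On CD these were 9328 of 18280 (51.0%, 50.3 to 51.8) and 86713 of 130441 (66.5%, 66.2 to 66.7). Mirrored points of promoter-promoter interactions lay in the domain more often, at 31.1% on each diet against 21.5% on LD and 22.8% on CD for promoter-other. The difference from mirrored points was thus 21.9 points for promoter-promoter and 44.3 for promoter-other interactions on LD, and 19.9 and 43.7 on CD. With the other promoter taken as the centre of the mirror, the promoter-promoter difference was 22.8 points on LD and 21.1 on CD.

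The classes differed at equal distance too. At 100 to 200 kb 72.2% of promoter-promoter and 87.1% of promoter-other interactions lay in 1 domain on LD, and at 200 to 300 kb 46.5% and 67.8%. At 300 to 500 kb the shares were 27.5% and 45.6% on LD, and 26.3% and 45.9% on CD. The observed end was the inner one in 79.2% of discordant promoter-promoter pairs at 100 to 200 kb against 91.3% of promoter-other pairs on LD, and in 78.1% and 91.3% on CD. Beyond 750 kb, these were 60.5% of 124 promoter-promoter pairs and 89.1% of 952 promoter-other pairs on LD. At 200 to 300 kb and scores of 20 or more, 66.2% of 133 promoter-promoter interactions lay in 1 domain against 90.5% of 791 promoter-other interactions on LD, and 57.7% of 130 against 89.5% of 986 on CD. At 50 to 100 kb and scores of 20 or more the order was the other way, at 93.6% of 156 against 90% of 230 on LD and 95.2% of 147 against 92.5% of 347 on CD. Baits of both classes sat in domains of equal median size at 100 to 200 kb on LD (280 kb), and of 325 against 405 kb at 300 to 500 kb. Promoter fragments are longer, with a median of 5.63 kb for distal promoter fragments inside the domain on LD against 2.40 kb for other distal fragments, and the part of fragment length in the class difference was not tested.

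**Figure D3:**
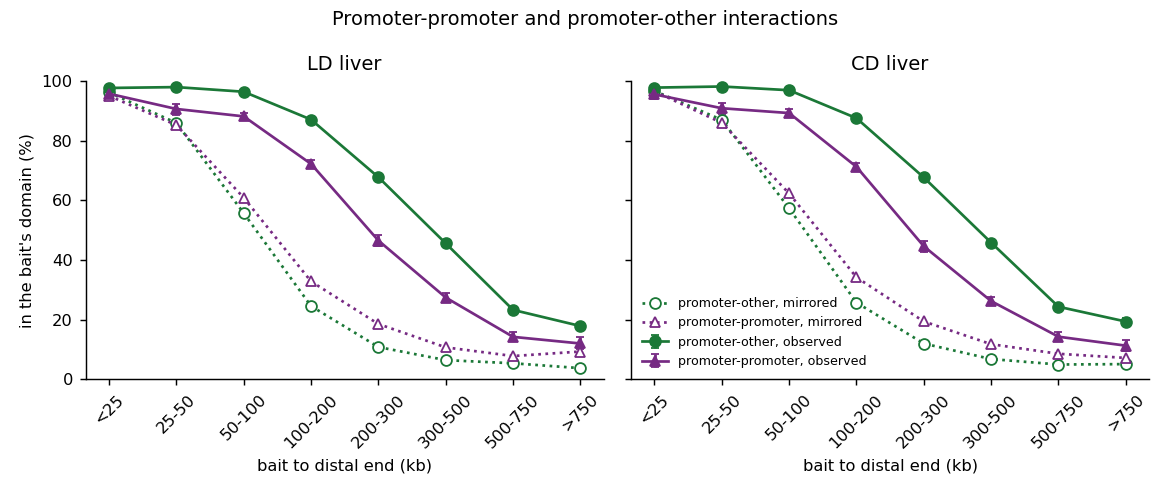
Share of interactions (%) in the domain of the bait by distance (kb) for promoter-promoter (triangles) and promoter-other (circles) interactions, observed (filled, with 95% Wilson intervals) and mirrored (open, dotted), in LD and CD liver. The promoter-promoter curve lies below the promoter-other curve in all 8 ranges of distance, while its mirrored curve lies above from 50 kb on.

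The position of the promoter within its domain went with the direction of its contacts. For baits 20 to 40 kb from the nearest border, 82.0% of LD interactions (81.6 to 82.5) and 82.7% of CD interactions (82.2 to 83.1) pointed away from that border. For baits 40 to 80 kb away these were 82.6% and 81.5%. The share fell to 58.0% on each diet for baits more than 160 kb from any border, and it was also low within 10 kb of a border, at 59.8% on LD and 57.7% on CD. Baits within 10 kb numbered 1498 on LD, and their borders were called in bins of 10 kb, so the side on which such a bait lies is itself uncertain. When contacts of baits at 20 to 40 kb pointed toward the border, 6.18% on LD ended before it. This comparison was added after the values by distance had been seen.

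**Figure D4:**
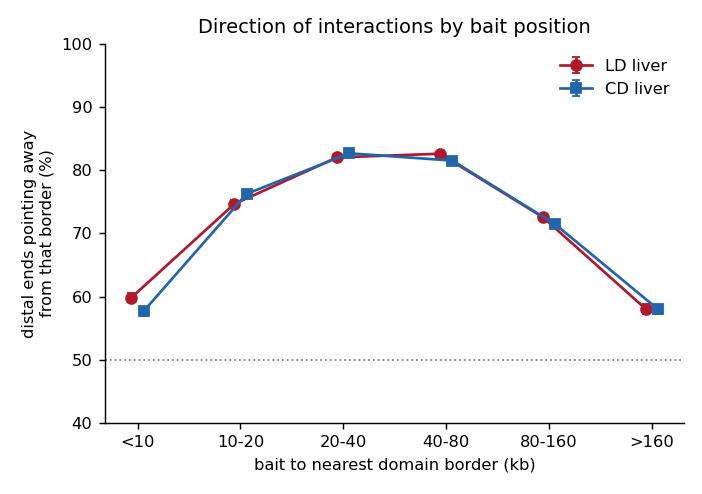
Share of distal ends (%) on the side of the bait away from its nearest domain border, by the distance from bait to that border (kb), in LD and CD liver, with 95% Wilson intervals. The vertical axis starts at 40%, and the dotted line marks equal numbers on both sides. Both diets peak between 20 and 80 kb at about the same level and stay above the line throughout.

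Distal ends also lay close to borders more often than mirrored points. On LD 21.8% of distal ends and 14.2% of mirrored points lay within 20 kb of a border, and on CD 21.1% and 14.0%. Of all sequence in the domain lists, 9.24% on LD and 9.03% on CD was that close. The share was 32.3% for distal ends across a border and 16.0% for those in the domain of the bait on LD, and 31.4% and 15.5% on CD. Promoter-promoter and promoter-other distal ends were alike in this, at 20.9% and 22.0% on LD.

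Distal ends that carried H3K27ac, a histone mark of active promoters and enhancers, were compared with unmarked ends. H3K27ac peaks were available for 3 samples per diet, and fragments with a peak in all 3 were set against fragments with none, over promoter-other interactions. Marked ends made up 22.5% of these interactions on LD and lay closer to the bait, with a median of 176 kb against 262 kb for unmarked ends. Over all distances, 69.1% of marked and 64.2% of unmarked ends lay in the domain of the bait on LD, and 68.3% and 65.4% on CD. Their mirrored points lay inside in 28.4% and 18.7% of cases on LD, and in 30.2% and 19.8% on CD. The difference from mirrored points was thus 40.6 points for marked and 45.5 for unmarked ends on LD, and 38.1 and 45.6 on CD. At equal distance the order of the observed shares was the opposite from 100 kb on. At 200 to 300 kb, 61.0% (59.7 to 62.2) of marked and 70.2% (69.6 to 70.9) of unmarked ends lay in 1 domain on LD, and 57.6% and 70.6% on CD. At 500 to 750 kb these were 7.86% (6.67 to 9.23) and 26.4% (25.6 to 27.3) on LD, and 8.80% and 27.8% on CD. Beyond 750 kb, 2.29% of marked ends and 1.96% of their mirrored points were inside on LD, and 4.13% and 2.20% on CD. For unmarked ends beyond 750 kb these were 20.6% and 4.22% on LD, and 22.3% and 5.67% on CD. Baits of the marked interactions at 500 to 750 kb lay in domains of a median of 300 kb, against 455 kb for unmarked ones on LD. Among discordant pairs the observed end was the inner one in 87.7% (86.1 to 89.1) of marked and 92.0% (91.5 to 92.5) of unmarked pairs at 300 to 500 kb on LD, and in 86.1% and 91.8% on CD. Marked fragments were also longer, at a median of 3.17 kb against 2.16 kb on LD. The part of domain size and of fragment length in these differences was not tested.

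Promoters of expressed genes reached across borders more often than silent ones at long distance. Baits were grouped by the mean TPM over 5 mice of their RefSeq gene, the highest where a fragment held several. Over all distances, 64.4% of the interactions of baits at 0 TPM and 63.8% of those above 10 TPM lay in 1 domain on LD. At 300 to 500 kb the LD share was 51.8% (50.3 to 53.3) at 0 TPM, 48.6% above 0 to 1, 38.6% above 1 to 10 and 36.0% (35.0 to 37.0) above 10. The same shares on CD were 52.1%, 46.3%, 39.5% and 37.4%. Mirrored points fell in the same order on LD, from 12.4% to 7.87%, 5.63% and 5.08%, and the median domain of the bait shrank from 470 to 350 kb. The share of discordant pairs with the observed end inside was 90.5% at 0 TPM and 89.4% above 10 TPM in this range on LD, with intervals that overlap (89.2 to 91.7 and 88.3 to 90.4). On CD the order was the opposite, at 86.4% (84.9 to 87.9) and 90.2% (89.1 to 91.1).

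LD minus CD was -0.436 points for the share of observed ends in 1 domain and -1.09 points for mirrored points, so the difference between observed and mirrored was 0.658 points larger on LD. For promoter-promoter interactions this difference was 2.03 points larger on LD, and for promoter-other interactions 0.563. Interactions listed on both diets made up 69.7% of the LD list. They lay in 1 domain in 69.0% of cases on LD, against 53.0% for interactions listed only on LD. On CD the shares were 69.5% and 53.0%. Interactions on 1 diet had lower scores, with a median of 5.71 against 7.69 on LD, and were longer, with a median of 283 against 214 kb. At 200 to 300 kb the shares on LD were 69.5% for interactions on both diets and 56.4% for the others. With 1 merged list per diet, no difference between diets can be compared with the spread between animals.

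Most interactions found on both diets had the same placement on each. Of 104594 such interactions, 69796 lay in 1 domain on both diets and 29543 crossed a border on both, together 95%. Another 2385 lay in 1 domain on LD only and 2870 on CD only. These 5255 interactions started from 1281 of 11545 baits, and in 74.0% of them an end lay within 20 kb of a border on either diet, against 40.4% of the others. At Bach2os, an antisense transcript of the transcription factor gene Bach2, all 84 shared interactions were in 1 domain on LD and crossed a border on CD. The Bach2os bait, chr4:32658329-32667795 (mm9), has its midpoint between the border at 32670000 on LD and that at 32660000 on CD, a single bin apart. At Phlda1, an immediate early gene, 92 of 130 shared interactions lay in 1 domain only on CD, where its domain ran from 110930000 to 111410000 on chromosome 10 against 110930000 to 111090000 on LD. At Fosl2, which encodes a subunit of the AP-1 transcription factor, 60 of 66 shared interactions lay in 1 domain only on CD. These loci were chosen after their values were seen.

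The Serpina cluster on chromosome 12, which encodes secreted serine protease inhibitors of the liver, was placed differently on the diets. Its baits held 154 interactions on LD, of which 146 (94.8%) lay in 1 domain, and 163 on CD, of which 80 (49.1%) did. With the domains of the other diet, 60 of the 154 LD interactions and 153 of the 163 CD interactions lay in 1 domain, so the shares moved with the domain list used. LD had a domain from 105220000 to 105680000, and CD had a border at 105320000 inside it. For Serpina3n, an acute phase gene with its bait at chr12:105640269-105652214, 52 of 55 interactions lay in 1 domain on LD and 12 of 43 on CD, and 41 interactions were shared. All Serpina3n contacts lay on the same side of the bait, between 49.5 and 441 kb away on LD and up to 435 kb on CD. No mirrored point lay in the domain of the Serpina3n bait on either diet. The cluster was chosen after its values were seen.

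**Figure D5:**
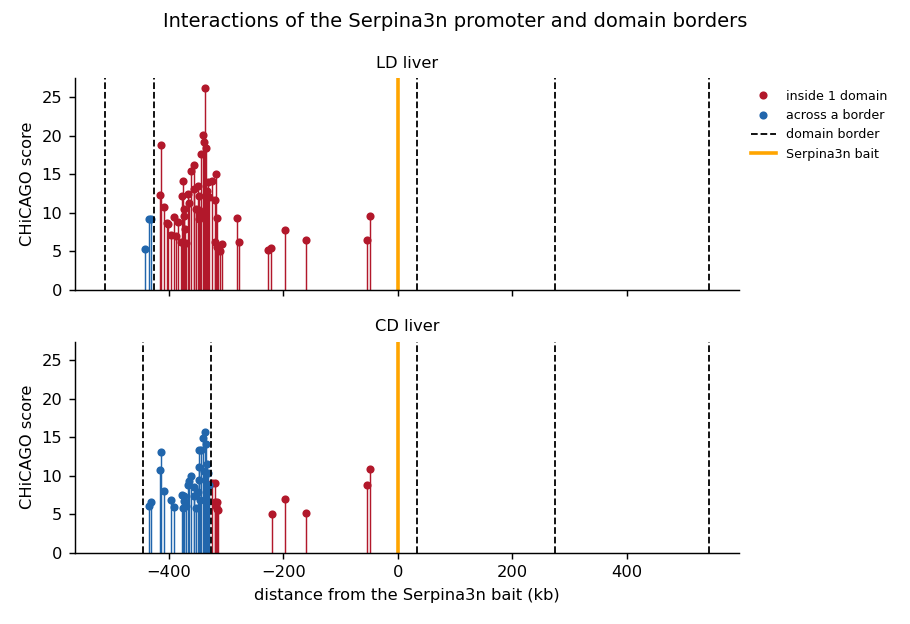
CHiCAGO score of each interaction of the Serpina3n promoter against the distance of its distal end from the bait (kb, negative toward the Serpina cluster), in LD and CD liver. Colours give whether the ends lie in 1 domain of that diet, dashed lines are its domain borders and the orange line is the bait. A border lies among the contacts on CD, where 12 of 43 are in 1 domain against 52 of 55 on LD, and 41 contacts are shared.

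Borders listed on 1 diet only were compared for the interactions that span them on each diet. At 584 borders with no LD border within 20 kb, CD interactions spanned 6040 times and LD interactions 6480 times, an LD to CD ratio of 1.07 (1.04 to 1.11). At 717 borders with no CD border within 20 kb, LD interactions spanned 8051 times and CD interactions 8024 times, a ratio of 1.0 (0.973 to 1.04). At 4709 borders listed on both diets within 10 kb of each other the ratio was 0.989 (0.978 to 1.0). Among the borders of CD only, LD spans outnumbered CD spans at 211 and were fewer at 142. Among the borders of LD only, LD spans were fewer at 194 and more at 221. Spans of observed interactions were 0.423 times those of mirrored ones at shared borders on LD, and 0.519 times at LD-only borders. For CD interactions these were 0.443 and 0.520 times. At CD-only borders the LD value was 0.451 times and the CD value 0.426 times. At the 924 remaining borders of either list, with the nearest border of the other diet between 10 and 20 kb away, these were 0.305 on LD and 0.296 on CD. At 1167 of the 4709 shared borders (24.8%) no interaction of either diet spanned the border, against 309 (6.56%) for mirrored interactions. Observed spans were fewer than mirrored ones at 3508 shared borders (74.5%) and more at 984 (20.9%), with a median of 6 observed and 33 mirrored spans over both diets.

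Genes of liver metabolism varied widely around these averages. For each gene, interactions with its baited fragment at either end were counted and mirrored across that fragment. Shares of a list pool the interactions of its genes, and the same share over all baits was 64.1% on LD and 64.6% on CD. The median over single baited fragments was 80% on LD and 83.3% on CD, with a median of 0% for mirrored points. The observed share was above the mirrored share at 8532 of 14219 baited fragments on LD and 8227 of 13804 on CD, and below it at 1003 and 997. Both shares were equal at 4684 on LD and 4580 on CD. In these counts over all fragments each interaction counts once, at the end listed as bait, unlike in the gene lists. Secreted liver proteins, with interactions for 13 of 15 genes on LD, had 151 of 197 interactions in 1 domain (76.6%, 70.3 to 82.0), against 13.7% mirrored. On CD 185 of 254 (72.8%, 67.1 to 77.9) were in 1 domain, against 22.0% mirrored. The median over the genes of this list was 56.6% on LD and 64.3% on CD, and 5 genes on each diet had equal observed and mirrored shares. The apolipoprotein genes on chromosome 9 had all of their interactions inside a domain of 555 kb on each diet. The fragment shared by Apoa1 and Apoc3, chr9:46033463-46045524, had 24 of 24 interactions in 1 domain on LD and 31 of 31 on CD, with 1 and 6 mirrored points inside. Apoa4 had 38 of 38 on LD and 39 of 39 on CD, up to 333 kb away, with 8 and 9 mirrored. Ttr, which encodes the thyroid hormone carrier transthyretin, had 30 of 53 in 1 domain on LD and 29 of 60 on CD, with 4 and 5 mirrored points inside.

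Hepatocyte transcription factors had interactions for all 13 genes, with 164 of 250 (65.6%, 59.5 to 71.2) in 1 domain on LD and 249 of 343 (72.6%, 67.6 to 77.0) on CD. The observed share was above the mirrored share in 12 of 13 genes on each diet, beside 8532 of 14219 baited fragments on LD and 8227 of 13804 on CD. Among baited fragments with at least 5 placed interactions it was above in 71.7% on LD and 70.8% on CD. Onecut1 stood apart from this list. It had 2 of 56 interactions in 1 domain on LD and 9 of 55 on CD, at median distances of 516 and 504 kb. Cebpb had 37 of 43 and 40 of 45 inside, with no mirrored point inside on either diet. Cebpa had 20 of 20 and 21 of 21 inside, and so were all of its mirrored points. The Cebpa bait lay 122 kb from the nearest border on LD and its contacts were at a median of 72.0 kb. Nr1h4, the bile acid receptor gene, had 21 of 21 and 38 of 38 inside with 20 and 37 mirrored points inside. Nr5a2, which encodes the nuclear receptor LRH-1, had 12 of 18 on LD and 53 of 67 on CD, with 4 and 40 mirrored. Hnf4a had 1 of 2 and 3 of 4.

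Lipid genes had fewer interactions. Lipogenesis genes had 38 of 54 (70.4%, 57.2 to 80.9) in 1 domain on LD, from 6 of 10 genes, against 57.4% mirrored, and 46 of 65 (70.8%) on CD. Elovl6, which encodes a fatty acid elongase, had 20 of 33 on LD and 26 of 39 on CD, with 19 and 24 mirrored points inside, so observed and mirrored counts differed by 1 and 2. Mlxipl, which encodes the carbohydrate-responsive factor ChREBP, had 7 of 7 and 7 of 8, with 6 and 7 mirrored. Me1 had 4 of 5 and 5 of 8, with as many mirrored points inside. Thrsp had 3 of 4 and 4 of 4 with none mirrored, Fasn 3 of 4 and 3 of 3 with 1 and 0, and Scd1 1 of 1 and 1 of 2 with 1 on each diet. Fatty acid oxidation genes had 19 of 29 (65.5%) in 1 domain on LD and 27 of 45 (60%) on CD, against 41.4% and 31.1% mirrored. The observed share was above the mirrored share in 6 of 10 genes on LD, close to the share over all baited fragments, and in 6 of 13 on CD, below that share. It was below the mirrored share in 1 gene on LD and 3 on CD. Among them Cpt1a, the rate-limiting step of mitochondrial fatty acid import, had 5 of 5 on each diet, as had its mirrored points. Acads had 4 of 6 and 5 of 6, with 1 mirrored point inside on each diet. Acot4 had 2 of 5 and 2 of 6 with 2 and 3 mirrored, and Acadl 2 of 3 and 1 of 4 with 1 and 3 mirrored, so on CD both were below their mirrored counts. The bait midpoints of Acads and Acadl lay 0.391 and 0.164 kb from a border on each diet. Borders were called in bins of 10 kb, so the side on which these 2 baits lie is uncertain. Acadm had 1 of 3 and 2 of 4, with none mirrored. Cd36, which encodes a fatty acid uptake receptor, had 23 of 23 on LD and 19 of 19 on CD in a domain of 300 kb on LD, from the bait chr5:17393949-17395100. Of its mirrored points 10 and 7 lay inside.

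Genes of sterol synthesis and uptake stayed inside the most of the lists, at 50 of 54 (92.6%, 82.4 to 97.1) on LD and 60 of 63 (95.2%, 86.9 to 98.4) on CD, against 37.0% and 22.2% mirrored. Sqle, which encodes squalene epoxidase, gave much of this with 23 of 23 on LD and 27 of 28 on CD, up to 427 kb away. Insig1, which encodes a regulator of sterol synthesis, had 6 of 6 and 15 of 15. Neither Sqle nor Insig1 had a mirrored point inside. Srebf2 had 8 of 8 and 5 of 5, with 8 and 3 mirrored. Clock genes had 11 of 20 and 16 of 28, with 20% and 7.14% of mirrored points inside. Dbp had 3 of 7 and 3 of 8 and Cry1 2 of 2 and 8 of 8, with no mirrored point inside for either. Nr1d1 had 3 of 3 and 2 of 3, with 3 and 2 mirrored points inside. Per1 had 0 of 3 on each diet, and no mirrored point inside.

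Developmental genes of other tissues showed the lowest share, at 48 of 188 (25.5%, 19.8 to 32.2) on LD and 55 of 193 (28.5%, 22.6 to 35.2) on CD, at median distances of 590 and 572 kb. Mirrored points were at 4.26% and 5.18%. Over all interactions at 500 to 750 kb, the range of these medians, 22.1% lay in 1 domain on LD and 23.0% on CD. Mirrored points in that range were at 5.76% and 5.52%, so the list was not below other interactions of like distance. Shh, the gene of a patterning signal, had 6 of 69 interactions in 1 domain on LD and 10 of 71 on CD, at a median of 779 and 777 kb. Sox2, a pluripotency and neural factor, had 0 of 35 and 0 of 34, with 4 and 3 mirrored points inside, and its bait lay 7.91 kb from a border. Hoxd9 had 7 of 19 and 7 of 24. Pax6, an eye and neural factor, had 19 of 19 and 21 of 21, in a domain of 1510 kb on LD and 620 kb on CD. These lists are small and several genes rest on 1 fragment, so the counts describe these loci only. Adgrf1, an adhesion G protein-coupled receptor gene, had 24 of 48 and 28 of 51 inside with no mirrored point inside. Ldlrad4, a membrane protein gene, had 69 of 72 and 65 of 69. Lgals1 had no placed interaction.

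Among 1764 baits with at least 20 placed interactions on each diet, 220 had every interaction in 1 domain on both. The median share across a border was 29.0%. Another 68 had no interaction in 1 domain on either diet. The 5 of these named here, taken by fragment position, were Zfp78 and Gm16532 with the olfactory receptor gene Olfr1336, which lay side by side in 1 domain of chromosome 7, then Gm15418 on chromosome 8 and Endod1 on chromosome 9. Gm15418 had 75 interactions on LD and 90 on CD, all across a border, at median distances of 676 and 666 kb from the bait chr8:11184996-11189808. Endod1 had 29 and 32, at 503 and 494 kb. Their mirrored points were never inside either. The baits named at the other end, taken by fragment position among the 220 with every interaction inside, were Pex19, the fragment of Dusp27 and Gpa33, Ankrd13c and Gm11074. The fragment of Dusp27 and Gpa33, chr1:168051911-168071452, had 32 and 36 interactions at a median of 296 and 281 kb, with no mirrored point inside. Ankrd13c had 36 and 43, at a median of 74.2 kb on LD, where 47.2% of mirrored points were inside too.

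Gene families that lie in clusters, chosen after the values were seen, stood at both ends of the range of observed shares. Keratin genes had 95 of 877 interactions (10.8%) in 1 domain on LD and 92 of 672 (13.7%) on CD, at a median distance of 597 kb on LD. Their mirrored points were inside in 1.71% of cases on LD and 1.93% on CD. Among discordant keratin pairs the observed end was inside in 96.5% on LD and 98.8% on CD. At 100 to 300 kb, 48.4% of 64 keratin interactions lay in 1 domain on LD and 65.1% of 63 on CD. Vomeronasal receptor genes had 366 of 414 (88.4%) on LD and 443 of 520 (85.2%) on CD, with 44.4% and 46.9% of mirrored points inside. Their difference from mirrored points was 44.0 points on LD and 38.3 on CD, against 41.5 and 40.8 over all interactions. Olfactory receptor genes had 1869 of 2718 (68.8%) on LD, with 46.0% of mirrored points inside, and 47.6% of their interactions were promoter-promoter. The protocadherin beta genes, which encode neuronal adhesion proteins, had mirrored points inside more often than observed ends, which none of the other 8 families did on either diet. They had 267 of 373 (71.6%) observed and 346 (92.8%) mirrored on LD, and 347 of 412 (84.2%) observed and 376 (91.3%) mirrored on CD. The other families on LD were the keratin-associated protein genes at 57.4% observed against 16.8% mirrored, histone genes at 65.5% and 20.4%, zinc finger genes named Zfp at 54.9% and 31.8%, Serpin genes at 83.7% and 17.6%, and cytochrome P450 genes at 50% and 14.1%. On CD the Serpin genes were at 51.1% and 19.6%. Genes of 1 family often share a locus, so their interactions are not independent.

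The difference between observed ends and mirrored points was above 0 on each of the 20 chromosomes on both diets. Over chromosomes it was 42.1 ± 4.51 points (SD, n = 20 chromosomes) on LD and 41.6 ± 5.48 on CD. Chromosome 7 was lowest, at 29.2 on LD and 26.2 on CD, and its mirrored points were inside in 34.7% and 37.2% of cases. No other chromosome was below 37.7 on LD or 37.3 on CD. The largest difference was 49.2 on LD, on chromosome 1, and 51.6 on CD, on chromosome 16. LD was above CD on 13 of 20 chromosomes, by a mean of 0.448 ± 2.01 points (SD, n = 20 chromosomes). Chromosomes are not replicates of a diet.

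The strongest contacts over 100 kb shared by the diets, ranked by the lower of the scores on LD and CD, show both placements. The first in 1 domain ran from the Rhob bait on chromosome 12 (chr12:8505012-8507705), which encodes a small GTPase, to chr12:8340019-8341487 with no annotated promoter, over 166 kb. Its score was 66.4 on LD and 77.0 on CD. The second joined the fragment of Nup54, a nuclear pore gene (chr5:92858528-92866001), to Stbd1, a glycogen-binding protein gene (chr5:93028585-93035557), at scores of 43.04 and 50.85 over 170 kb. The Nup54 fragment is baited under the transcript name SCARNA4.5-201, and Nup54 is its RefSeq gene. The third ran from Rasgef1b on chromosome 5 to an unbaited fragment 329 kb away, at 38.3 and 38.6. All 3 had their mirrored point outside the domain. The 3 contacts across a border with the highest rank were each promoter-promoter and crossed 1 border on each diet. The Dnahc3-201 transcript bait was joined to Abca15 on chromosome 7, over 232 kb, at scores of 45.4 and 50.2. Pex2 was joined to Zfhx4 and 2700069I18Rik on chromosome 3, over 356 kb, at 39.1 and 43.5. Mtap was joined to Ifne on chromosome 4, over 258 kb, at 36.6 and 91.25. For the last 2 the mirrored point lay in the domain of the bait.

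CTCF binds a motif whose core can be written as the string CCAGNGGGC, where N is any base, searched on both strands of NCBIM37, the assembly of mm9. The string was more frequent at borders than elsewhere. It was found in 45.5% (44.2 to 46.8) of 5889 windows of 20 kb centred on LD borders, and in 35.8% (35.6 to 36.1) of 127853 windows that tile the LD domains. CD gave 45.5% and 35.9%, and borders on both diets 46.7% at LD positions. Distal fragments carried it in 11.6% of promoter-other interactions in 1 domain and 11.2% of those across a border on LD, against 6.84% of all HindIII fragments in the domains. Promoter-promoter distal fragments carried it in 24.6% of cases in 1 domain and 27.5% across a border on LD, and in 23.5% and 28.2% on CD. Per kb of sequence there were 0.0499 and 0.0570 matches in these on LD, and 0.0248 over all fragments.

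Where both ends carried the string on a single strand each, the orientations were compared. Strings that faced each other (plus strand at the left end, minus at the right) were 28.8% (27.2 to 30.5) of 2784 such interactions in 1 domain on LD and 26.0% (23.9 to 28.2) of 1606 across a border. Strings that pointed apart were 21.8% (20.3 to 23.4) and 24.7% (22.6 to 26.8). On CD facing strings were 28.3% of 2633 in 1 domain and 25.8% of 1520 across a border, and strings that pointed apart 22.4% and 23.8%. In 1 domain the intervals of facing strings and strings pointing apart did not overlap on either diet, and across borders they did. The intervals for facing strings in 1 domain and across a border overlapped on both diets. A match is a description and not a bound site.

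Matches in the end fragments of the 6 contacts above are printed with 30 bases of NCBIM37 sequence, read along the strand of the match, 5′ to 3′, with the string in capitals, because they show the strand on which each end carries it. The unbaited end of the Rhob contact held 2, both on the minus strand, at chr12:8340220-8340249 and chr12:8340395-8340424. This end lies to the left of Rhob, so both matches point away from the bait. The Nup54 fragment held 1 on the plus strand at chr5:92858916-92858945, which is the left end of that contact and points toward Stbd1. The other ends, and 20 kb around the borders that the 3 crossing contacts span on LD, held no match to these letters.
Rhob contact, first match: acttaaaaggcCCAGAGGGCaggggagcaa
Rhob contact, second match: tggccctggatCCAGTGGGCacagcagcag
Nup54 fragment: agaacgggacCCAGAGGGCtgattgtattt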

How the data were processed

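Livers of 2 LD and 2 CD animals were profiled by in situ Hi-C and by PCHi-C with HindIII. The authors processed reads with HiCUP on mm9, summed the 2 animals of a diet, found domains with HiCExplorer in bins of 10 kb, and scored interactions with CHiCAGO. The deposited interaction lists give the CHiCAGO score of interactions of at least 5, within about 1 Mb on 1 chromosome. Scores carry no read counts, so the depth behind an interaction is unknown here, and merged animals hide their spread. The deposited domain lists give the ends of each domain, and their separation score was not used. H3K27ac peaks are SICER intervals of 3 samples per diet. The authors also deposited TPM values of 5 mice per diet, averaged here, and their own comparison of the diets (fold changes and p-values), which was not used.

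Fragment starts lay at HindIII sites of NCBIM37 in 100% of cases. Midpoints were placed in domains with Python 3.11.15, numpy 2.4.6, pandas 2.3.3 and scipy 1.17.1, and intervals are at 95%. Placing was checked on simulated domains. Alternatives covered the other domain list, joined borders, fragment overlap, distance, score and mirrored points. Genes named were those with most interactions in each list (up to 4), those the study discusses, the 5 baits at each extreme, and the 3 strongest contacts of each placement. Some genes that this rule names are not reported here. Members and lists were chosen with earlier results of these data known. Bait position, ends near borders, domain size, listing on 1 or both diets, changes of placement, gene families and the Serpina locus were added after values had been seen.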

Additional observations from a re-analysis of the deposited data

Results flagged for a closer look

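Among the TPM values of the cell type markers, 3 groups of 5 mice held a value far from the other 4, by Dixon's test at its 95% level, which chance gives in about 1 of 20 groups. Apoa1 was at 11543 TPM in 1 CD mouse, below the others. Cd68, a macrophage gene, was at 34.9 TPM in 1 LD mouse, and Pecam1, an endothelial gene, at 27.2 TPM in 1 LD mouse, both above the others. The markers were used only to describe the tissue.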

How the results depend on the processing

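The difference between observed ends and mirrored points stayed above 0 in every alternative run over all interactions. From 41.5 points on LD and 40.8 on CD it moved to 37.4 and 35.9 with only the borders of both diets, to 40.1 and 39.8 with whole fragments, and to 45.5 and 43.8 without points within 20 kb of a border. It was 52.7 and 52.3 at scores of at least 10, 43.6 and 42.9 for ends at least 50 kb apart, 42.2 and 42.1 for the highest-scoring interaction of each bait, and 44.3 and 43.7 for promoter-other interactions. With the mirrored point on a listed fragment it was 35.2 and 34.5, and with the mirrored point not on a fragment of the same bait 44.1 and 43.6. Without chromosome 7, chosen after seeing the data, it was 42.8 and 42.5, and CD with the domains of LD gave 40.5. By distance, 201 of 204 alternatives were above 0, 96 lay within the interval of the reported value, and 1 reversed, at -0.60 points under 25 kb on CD at scores of at least 10. By score, all 126 were above 0.

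The promoter-promoter difference less the promoter-other difference was -22.3 points on LD and -23.8 on CD, and with equal weight to each range of distance -14.8 and -15.6. Mirrored across the other end it was -22.6 on CD. Over all acetylated ends the difference was 35.5 on LD and 33.1 on CD, and with a peak in at least 2 samples 36.6 and 34.4. The excess of the CTCF string at borders was 9.65 points on LD and 9.66 on CD, and 11.5 on both with 40 kb windows. The cause of these shifts was not tested.

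No paired analysis was possible because each list merges the animals of a diet, and for the same reason leaving out each replicate could not be run. Scores carry no reads, so depth behind a single contact is unknown. Domain borders are placed to 10 kb, which limits placement of ends close to a border.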
